A study of Homo sapiens with 6 samples.

Results

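Amino acid transporters of the solute carrier (SLC) superfamily were examined in MHCC97H, an established line of human hepatocellular carcinoma cells, with and without a short hairpin RNA (shRNA) against the splicing regulator PTBP1. The genes were taken by name, as every symbol of families SLC1A, SLC3A, SLC6A, SLC7A, SLC36A, SLC38A and SLC43A in the deposited table, less 1 gene of the SLC38A family that is not reported here. This gave 58 of the 58825 genes in the table, namely 7 of SLC1, 2 of SLC3, 19 of SLC6, 13 of SLC7, 4 of SLC36, 10 of SLC38 and 3 of SLC43. Names do not follow substrates exactly, so the 58 include carriers of taurine, creatine, GABA, monoamines and nucleobases.

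Amino acids cross the plasma membrane on carriers that either exchange one amino acid for another or concentrate it by coupling to sodium or protons. In the heterodimeric carriers, an SLC7 light chain does the transport and an SLC3 heavy chain brings it to the cell surface. Proliferating and tumour cells are known for using the leucine exchanger SLC7A5, the glutamine exchanger SLC1A5, the system A carriers SLC38A1 and SLC38A2, and the cystine-glutamate exchanger SLC7A11, and several of these genes are known targets of the amino acid response factor ATF4 and of MYC.

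Poly(A) RNA was sequenced in 3 libraries labelled shPTBP1 with the genotype PTBP1 knockdown, and in 3 libraries labelled shControl with the genotype WT. Both groups are of the same single cell line and both names give a hairpin, but the labels state neither its sequence nor whether the libraries came from separate cultures, so that a p-value measures the spread between these libraries only. Library totals were 68.7 to 85.3 times 1e6 counts. The targeted gene was read first. PTBP1 had 17.3, 16.9 and 18.0 FPKM (fragments per kilobase of transcript per 1e6 fragments) in the libraries labelled shPTBP1 1, 2 and 3, against 21.2, 16.4 and 27.4 in those labelled shControl 1, 2 and 3. The groups overlapped, with a log2 fold change of -0.29 (95% interval -0.71 to 0.13, adjusted p = 0.953 by edgeR's quasi-likelihood test with Benjamini-Hochberg adjustment). PTBP2, a paralog of PTBP1, had 3.80, 4.06 and 3.21 FPKM in shPTBP1 and 2.01, 1.88 and 0.61 in shControl. In PTBP2 all 3 shPTBP1 libraries were thus above all 3 shControl libraries, as in 6.49% of all genes tested in normalised CPM. Every direction below is therefore one between libraries as labelled.

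Of the markers of hepatocytes and hepatocellular carcinoma, ALB, AFP and TTR were listed at 0 in all 6 libraries, and APOA1, GPC3 and SERPINA1 at no more than 0.22 FPKM. The epithelial keratins KRT8 and KRT18 were present, at 47.8 to 53.2 and 93.4 to 110.3 FPKM in shPTBP1, against 37.7 to 43.4 and 89.7 to 104 FPKM in shControl. The hepatocyte identity of the cells thus rests on the labels. Of the fibroblast collagens, COL1A2 was listed at 0 in all libraries and COL1A1 was at 6.35 to 9.53 FPKM in shPTBP1 and 7.75 to 9.30 FPKM in shControl. Of the leukocyte markers, PTPRC reached at most 0.24 FPKM, while LYZ and S100A8 reached 2.87 and 2.64 FPKM in shPTBP1 and 4.35 and 3.46 FPKM in shControl.

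SLC7A5 and SLC7A8, the light chains of the L-type exchangers for large neutral amino acids, are close paralogs and lay far apart in level in these cells, so the sequences just upstream of their starts are shown. Each line gives the 250 bases before a RefSeq start on GRCh38.p14, 5′ to 3′ on the minus strand of the chromosome. Capitals mark the E-box CACGTG, a sequence bound by MYC and related factors.
SLC7A5 at chr16:87869508-87869757: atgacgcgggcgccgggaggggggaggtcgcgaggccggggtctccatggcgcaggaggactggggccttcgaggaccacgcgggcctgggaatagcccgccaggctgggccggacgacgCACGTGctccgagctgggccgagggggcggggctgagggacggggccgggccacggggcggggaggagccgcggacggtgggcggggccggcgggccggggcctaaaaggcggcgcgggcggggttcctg
SLC7A8 at chr14:23183661-23183910: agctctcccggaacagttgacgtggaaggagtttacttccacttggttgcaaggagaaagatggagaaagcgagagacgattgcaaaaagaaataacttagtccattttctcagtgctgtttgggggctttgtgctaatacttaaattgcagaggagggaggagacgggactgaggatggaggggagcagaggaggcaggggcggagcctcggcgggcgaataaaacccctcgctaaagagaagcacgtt
The SLC7A5 window was 79.6% G and C with 34 CpG dinucleotides and held CACGTG from 130 to 125 bases before the start, while the SLC7A8 window was 51.2% G and C with 11 CpG dinucleotides and no match. A further SLC7A8 start, whose window overlaps exons of the gene and is not shown, held CACGTG from 129 to 124 bases before it. Other SLC7A8 windows held no match and are not shown, among them chr14:23155459-23155708, which overlaps no exons of the gene. CACGTG occurred in 6.34% of all 35116 RefSeq windows of this length and in at least 1 window of 9 of the 43 transporter genes with an entry, SLC1A5, SLC1A7, SLC36A1, SLC38A5, SLC43A1, SLC6A16, SLC7A5, SLC7A7 and SLC7A8. Of these 9, SLC1A7 was listed at 0 FPKM in every library and SLC7A5 had the highest level. TGATGCAA, the composite element read by CEBP and ATF factors, was searched on both strands as well. It occurred in 0.772% of windows and in 2 of these 43 transporter genes, SLC1A3 and SLC1A5. The transporter genes without an entry, SLC7A11 among them, were not searched for either sequence. Some genes had several windows, so shares over windows and over genes are not on the same footing.

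A minority of the transporters carried nearly all of the transporter mRNA. The mean over the 6 libraries was at least 1 FPKM in 26 of the 58 genes, at least 10 FPKM in 10, at least 50 in 5 and at least 100 in 2. Of the other 32 genes, 14 had a count of 0 in every library, which allows up to 0.0352 to 0.0437 counts per 1e6 counts (CPM) by library if each count is 1 read. Summed over all 58 genes, the level was 637, 743 and 741 FPKM in shPTBP1 1, 2 and 3, against 696, 699 and 627 FPKM in shControl 1, 2 and 3. The groups overlapped in this sum. The 6 highest genes, SLC7A5, SLC38A2, SLC43A3, SLC3A2, SLC38A1 and SLC1A5, made up 77.6 to 82.5% of it, and the 12 highest 92.1 to 93.5%. SLC7A5 was the highest gene in 6 of 6 libraries, and SLC38A2 came next in 5 of 6. The neighbours SLC43A3, SLC3A2 and SLC38A1 exchanged ranks between libraries, with SLC43A3 at ranks 2 to 4. By the annotation, 31 of the 58 genes overlap another gene on the opposite strand.

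**Figure D1:**
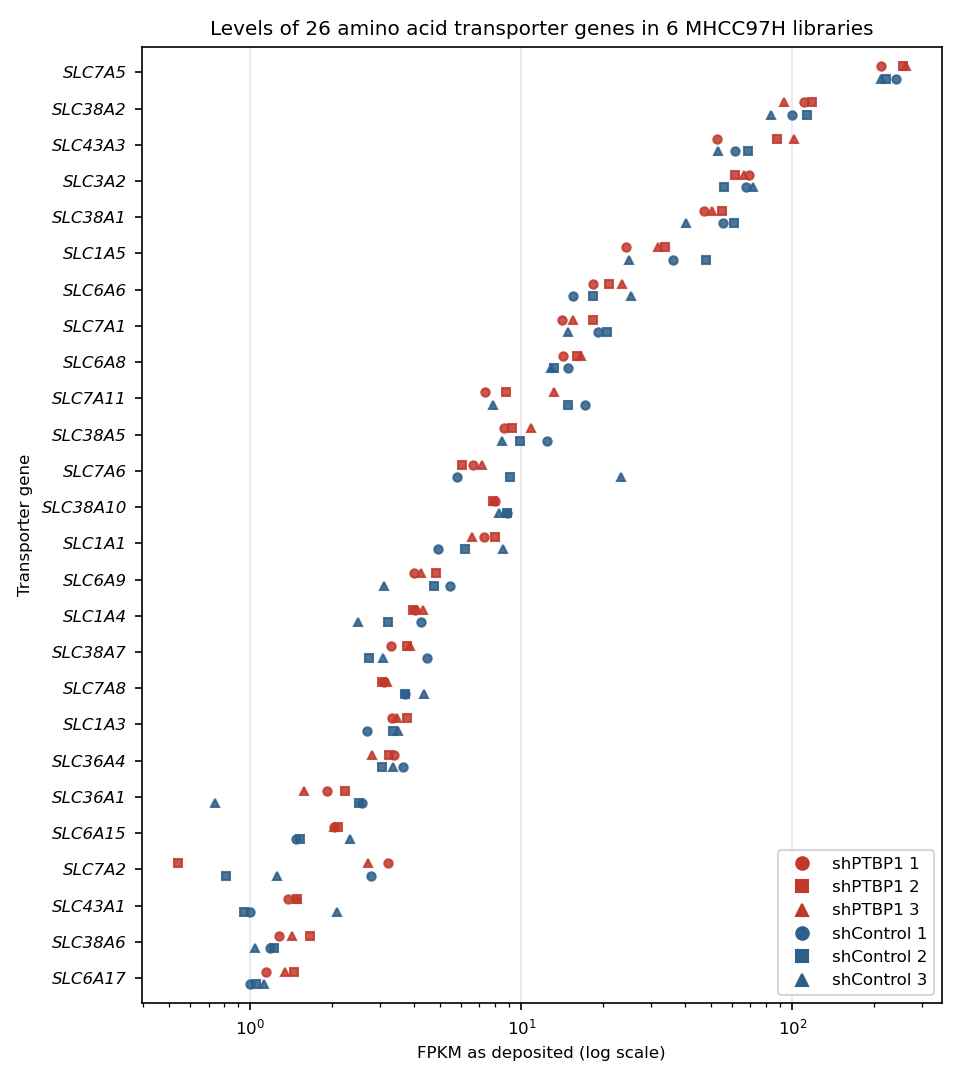
FPKM (horizontal, log scale) of the 26 amino acid transporter genes with a mean of at least 1 FPKM, ordered by that mean, with 1 point for each of 3 shPTBP1 libraries (red, upper row of each gene) and 3 shControl libraries (blue, lower row). SLC7A5 lies rightmost at 213 to 262 FPKM in shPTBP1 and 213 to 241 FPKM in shControl, and the single blue triangle of SLC7A6 at 23.4 FPKM is shControl 3.

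In the comparison of shPTBP1 with shControl, 33 of the 58 genes passed the filter on low counts and were tested. None passed the threshold of an adjusted p under 0.05 in edgeR's quasi-likelihood test with Benjamini-Hochberg adjustment over all 19393 genes tested, of which 6 passed (0.0309%). None passed in DESeq2 either, where 168 genes did, nor in limma on log2 FPKM. Those 168 were 0.544% of the 30866 genes with a p-value in DESeq2, a wider set than in edgeR. That set can include genes of low counts that DESeq2 left without an adjusted p, so the shares of DESeq2 and edgeR are not on the same footing. Adjusted p-values of the transporters in edgeR ranged from 0.876 to 0.999. At an unadjusted p under 0.05 the edgeR test gave 1 transporter, SLC7A8, lower in shPTBP1, and 0 higher, beside 5.69% of all genes tested (2.11% lower and 3.58% higher). Which gene this was depended on the test, since in DESeq2 it was SLC7A6 (unadjusted p = 0.0201), with SLC7A8 at 0.0666. In normalised CPM the groups did not overlap in 3 of 33 transporters, or 9.09%, beside 11.9% of all genes. These were SLC7A8, lower in every shPTBP1 library (as were 5.46% of all genes), and SLC38A6 and SLC6A17, higher in every one (as were 6.49%). In FPKM, which are not TMM-normalised, SLC38A10 did not overlap either. The median log2 fold change of the 33 was 0.12, beside -0.01 for all genes tested, with a positive sign in 21 of the 33 (63.6%, beside 48.0% of all genes).

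How much difference these libraries could have hidden is given by the intervals. In 22 of the 26 transporters with at least 1 FPKM, the 95% interval of the fold change lay within 2-fold either way, and in 12 within 1.5-fold. The exceptions to 2-fold were SLC7A6, SLC7A11, SLC7A2 and SLC36A1. Among these 26 the median size of the log2 fold change, without its sign, was 0.17, beside 0.14 over the 11986 genes at that level. In bulk RNA, fewer cells expressing a gene and less of its RNA per cell cannot be told apart.

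**Figure D2:**
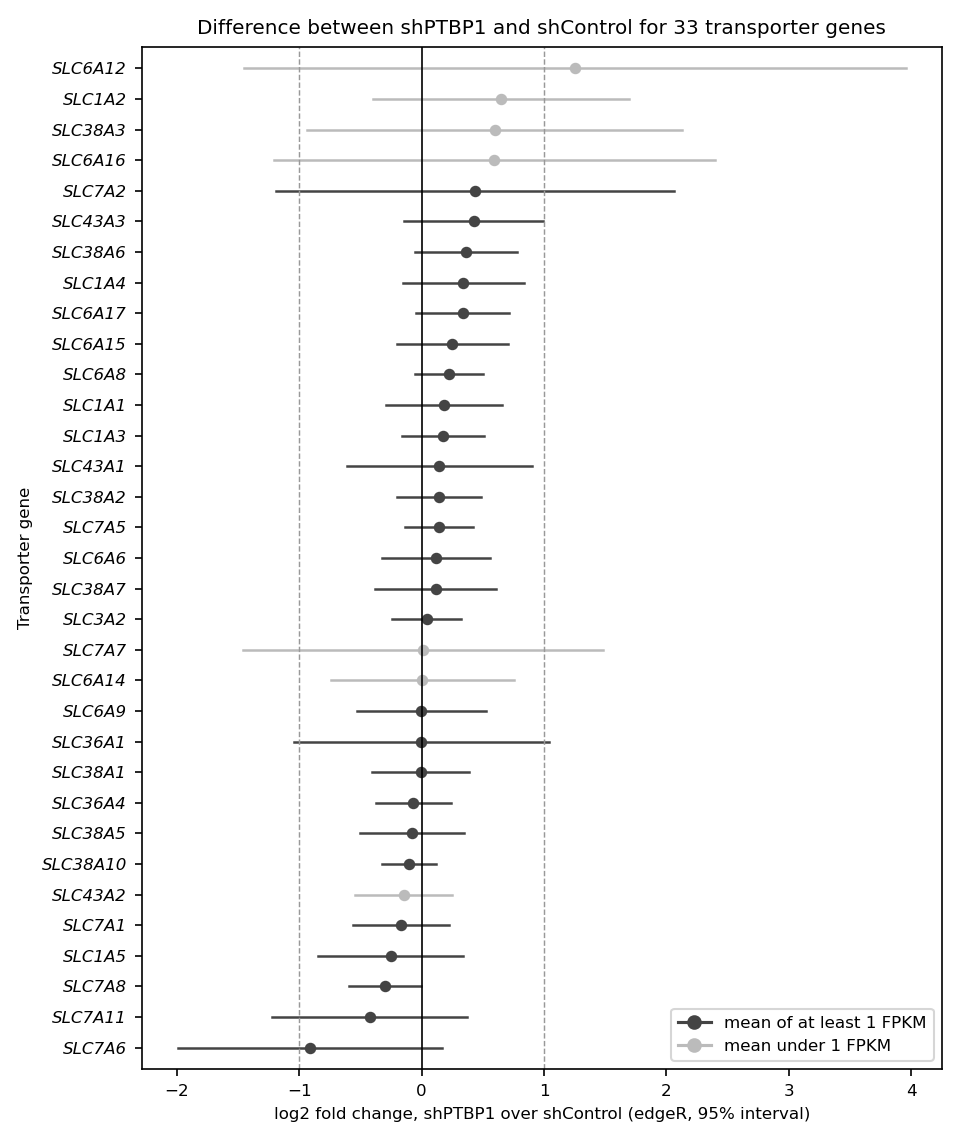
Log2 fold change of shPTBP1 over shControl (points) with its 95% interval (lines) from edgeR for the 33 transporter genes tested, ordered by the fold change, with genes under a mean of 1 FPKM in pale grey and dashed lines at a 2-fold difference either way. Of the 33 intervals, that of SLC7A8 lies wholly below 0, from -0.60 to just under 0, and the other 32 include 0.

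The heterodimeric carriers held the largest share of the transporter mRNA. SLC7A5, which imports leucine and other large neutral amino acids in exchange for glutamine and lies on chromosome 16 from 87830023 to 87869507 of hg38, had 213, 257 and 262 FPKM in shPTBP1, against 241, 222 and 213 FPKM in shControl. It alone was 33.5 to 35.4% of the summed level in shPTBP1 and 31.7 to 34.6% in shControl. The groups overlapped, and the log2 fold change was 0.14 (standard error 0.12, 95% interval -0.13 to 0.42, adjusted p = 0.960 by edgeR). SLC3A2, the heavy chain that SLC7A5 needs at the surface, lies on chromosome 11 from 62856102 to 62888875 and had 69.2, 61.7 and 66.5 FPKM in shPTBP1, against 67.6, 56.0 and 71.7 FPKM in shControl. Its log2 fold change of 0.04 had an interval of -0.24 to 0.33, narrow enough to leave out a change of 1.5-fold. SLC3A1, the heavy chain of the renal and intestinal cystine carrier, was at no more than 0.03 FPKM in any library, and its partner SLC7A9 at no more than 0.05 FPKM. Reads of SLC7A5 may be shared with its near-identical pseudogenes, of which SLC7A5P1 was at 0.13 to 0.43 FPKM and SLC7A5P2 at 0.00 to 3.22 FPKM over both groups.

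SLC7A5 also dominated among the light chains that pair with SLC3A2. Those chains summed to 230.4, 275 and 286 FPKM in shPTBP1, against 268, 249 and 248 FPKM in shControl, or 3.33 to 4.46 times the level of SLC3A2 in the same libraries. SLC7A5 was 91.7 to 93.5% of that sum in shPTBP1 and 85.7 to 90.0% in shControl. These shares did not overlap between the groups, though the FPKM of SLC7A5 did, and the difference in share was not tested. The shares also depend on the other chains. SLC7A6 had 5.78, 9.07 and 23.4 FPKM in shControl 1, 2 and 3, against 6.02 to 7.16 FPKM in shPTBP1. SLC7A11 had 17.2, 14.9 and 7.83 FPKM in shControl 1, 2 and 3, against 7.32 to 13.2 FPKM in shPTBP1.

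SLC7A8, the paralog with a wider range of neutral substrates, lies on chromosome 14 from 23125295 to 23183660. It had 3.12, 3.05 and 3.20 FPKM in shPTBP1, against 3.71, 3.71 and 4.37 FPKM in shControl. All 3 shPTBP1 libraries were below all 3 shControl libraries, with a log2 fold change of -0.30 and a standard error of 0.13. By edgeR its unadjusted p was 0.0474 and its adjusted p 0.876, which did not pass the threshold. The unadjusted p was 0.0620 to 0.130 as each library was left out. The FPKM ratio of SLC7A5 to SLC7A8 was 68.3, 84.2 and 81.9 in shPTBP1, against 64.9, 59.7 and 48.7 in shControl. Both genes entered that ratio with opposite signs, and the ratio was not tested.

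SLC7A6, which exchanges cationic for neutral amino acids, had the largest negative fold change of the 33, and its size rested on 1 library. It had 6.60, 6.02 and 7.16 FPKM in shPTBP1, against 5.78, 9.07 and 23.4 FPKM in shControl. Only shControl 3 stood apart, and the log2 fold change of -0.91 (95% interval -1.99 to 0.17, adjusted p = 0.932 by edgeR) became -0.15 without it. SLC7A6 lies on chromosome 16 from 68264516 to 68301823 and overlaps SLC7A6OS on the opposite strand, and whether counting used the strand is not stated, so that their reads cannot be told apart. SLC7A6OS had 5.59, 5.91 and 5.48 FPKM in shPTBP1, against 4.16, 5.77 and 3.74 FPKM in shControl, and was not high in shControl 3. SLC7A7, the related chain of the intestine and kidney, was at 0.04 to 0.11 FPKM in shPTBP1 and 0.03 to 0.09 FPKM in shControl.

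SLC7A11, the light chain of the cystine-glutamate exchanger that feeds glutathione synthesis, was lower in shPTBP1 in the libraries numbered 1 and 2 and higher in those numbered 3. It lies on chromosome 4 from 138164097 to 138242349 and had 7.32, 8.77 and 13.2 FPKM in shPTBP1, against 17.2, 14.9 and 7.83 FPKM in shControl. The groups overlapped through shControl 3, the lowest of its group, while shPTBP1 3, the highest of its own, was still below shControl 1 and 2. Over all libraries the log2 fold change was -0.42 (standard error 0.34, 95% interval -1.22 to 0.37, adjusted p = 0.960 by edgeR). The antisense gene SLC7A11-AS1 was at no more than 0.32 FPKM.

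**Figure D3:**
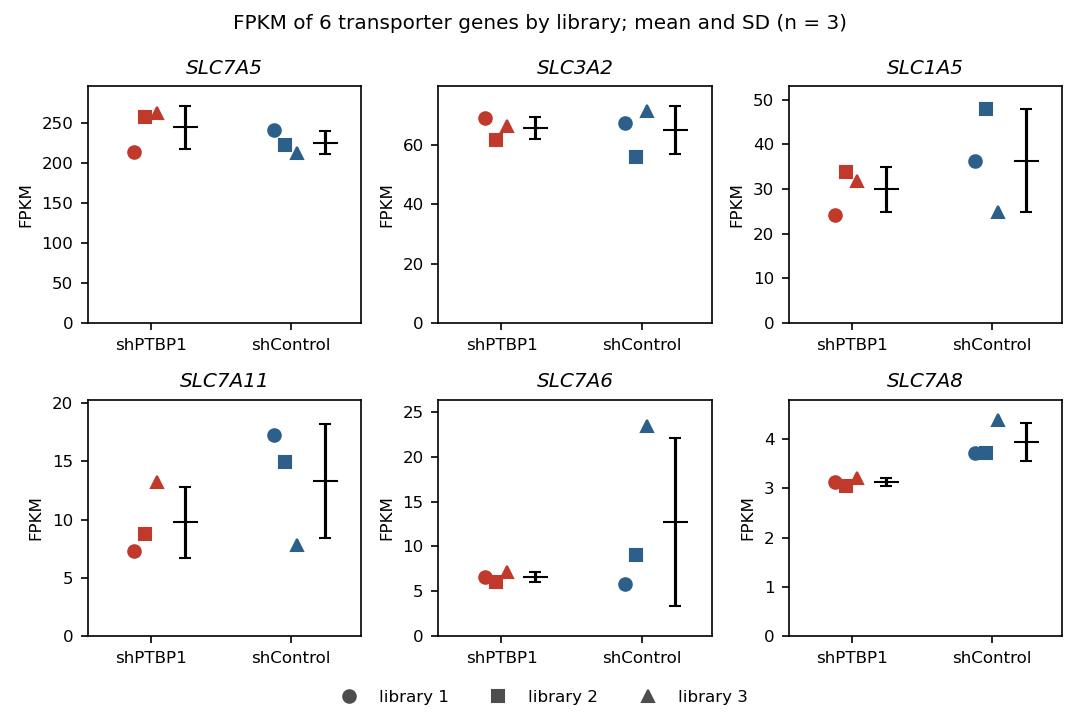
FPKM (vertical, linear from 0) of 6 transporter genes in each shPTBP1 library (red, left) and each shControl library (blue, right), with symbols for the library number and black bars for the mean and SD of the 3 libraries of a group. The groups are separate in SLC7A8, shControl 3 stands alone in SLC7A6, and in SLC7A11 the number 3 libraries (triangles) lie in the opposite order to numbers 1 and 2.

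Among the cationic amino acid carriers, SLC7A1, the broadly expressed arginine and lysine importer on chromosome 13 from 29509414 to 29595688, was the main one. It had 14.1, 18.4 and 15.5 FPKM in shPTBP1, against 19.2, 20.8 and 14.8 FPKM in shControl, with a log2 fold change of -0.17 (95% interval -0.56 to 0.22). SLC7A2, the inducible arginine carrier known from liver, varied most of all 26 transporters, with 3.21, 0.54 and 2.71 FPKM in shPTBP1 and 2.79, 0.81 and 1.25 FPKM in shControl. Its highest library was 6.03 times its lowest in normalised CPM, and the low libraries were number 2 of both groups. SLC7A3 and SLC7A14 had counts of 0 in all libraries.

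The SLC1 family splits into neutral exchangers and glutamate carriers, and the neutral exchanger SLC1A5, a glutamine carrier on chromosome 19 from 46774883 to 46788594, was its highest member. It had 24.3, 33.8 and 31.9 FPKM in shPTBP1, against 36.2, 48.0 and 24.9 FPKM in shControl. The groups overlapped through shControl 3, the second lowest of all 6 libraries, and the log2 fold change was -0.25 (95% interval -0.84 to 0.34, adjusted p = 0.975 by edgeR). Its paralog SLC1A4, which prefers alanine, serine and cysteine, had 4.05, 3.99 and 4.35 FPKM in shPTBP1, against 4.25, 3.22 and 2.49 FPKM in shControl, and a log2 fold change of 0.34 (95% interval -0.15 to 0.83). SLC1A5 was 5.99 to 8.47 times as high as SLC1A4 in shPTBP1 and 8.52 to 14.9 times in shControl. This ratio did not overlap between the groups, and it was not tested.

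The glutamate and aspartate carriers were all lower than SLC1A5. SLC1A1, the highest of them, was above SLC1A4 in each of the 6 libraries, and had 7.25, 8.01 and 6.59 FPKM in shPTBP1, against 4.91, 6.20 and 8.53 FPKM in shControl, so that shControl held both the lowest and the highest library. SLC1A3 had 3.32 to 3.79 FPKM in shPTBP1 and 2.70 to 3.51 FPKM in shControl. SLC1A2, the main glutamate carrier of astrocytes and also known from liver, was at no more than 0.03 FPKM, and SLC1A6 and SLC1A7 had counts of 0 throughout.

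The sodium-coupled SLC38 carriers were the second source of transporter mRNA, at 168 to 196 FPKM in shPTBP1 and 146 to 197 FPKM in shControl when summed. SLC38A2, a system A carrier of alanine and glutamine that cells raise when amino acids run short, had 111, 118 and 93.1 FPKM in shPTBP1, against 99.7, 113 and 83.6 FPKM in shControl. The groups overlapped, and the log2 fold change was 0.14 (95% interval -0.20 to 0.49). SLC38A1, its system A paralog, had 47.3, 55.1 and 50.6 FPKM in shPTBP1, against 55.5, 60.7 and 40.4 FPKM in shControl, and a log2 fold change of -0.01 (95% interval -0.40 to 0.38) whose sign turned under several other settings. Both lie on chromosome 12, SLC38A1 from 46183063 to 46269951 and SLC38A2 from 46358188 to 46372773. SLC38A4, a system A carrier known from hepatocytes and the next gene of the family along that chromosome, from 46764761 to 46825997, was at no more than 0.01 FPKM.

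Of the other SLC38 genes, SLC38A5, a system N carrier of glutamine, histidine and serine on chromosome X from 48458537 to 48470260, had 8.63, 9.22 and 10.8 FPKM in shPTBP1, against 12.5, 9.91 and 8.45 FPKM in shControl. The log2 fold change was -0.08 (95% interval -0.50 to 0.35). SLC38A6, on chromosome 14 from 60981114 to 61083729, was higher in every shPTBP1 library, at 1.27, 1.66 and 1.42 FPKM against 1.18, 1.22 and 1.04 FPKM in shControl. Its log2 fold change of 0.36 (95% interval -0.06 to 0.78, unadjusted p = 0.0804, adjusted p = 0.923 by edgeR) did not pass either threshold. It overlaps TRMT5 on the opposite strand, which had 4.07 to 4.77 FPKM in shPTBP1 and 3.43 to 4.67 FPKM in shControl, so the low reads of SLC38A6 may be shared with it. SLC38A10 was the steadiest of the 26 transporters in normalised CPM, with 8.02, 7.84 and 7.95 FPKM in shPTBP1 and 8.88, 8.88 and 8.30 FPKM in shControl. SLC38A3, the main system N carrier of liver, had 1.05, 0.68 and 0.41 FPKM in shPTBP1, against 0.17, 0.29 and 0.98 FPKM in shControl, and here too shControl 3 was unlike the others of its group.

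Of the 19 SLC6 carriers, a family better known from neurons and kidney, 5 had a mean of at least 1 FPKM. SLC6A6, the taurine carrier on chromosome 3 from 14402576 to 14489349, had 18.4, 21.0 and 23.5 FPKM in shPTBP1, against 15.5, 18.3 and 25.4 FPKM in shControl. SLC6A8, the creatine carrier on chromosome X from 153687926 to 153696588, had 14.3, 16.0 and 16.6 FPKM in shPTBP1, against 14.9, 13.2 and 12.8 FPKM in shControl, with a log2 fold change of 0.22 (95% interval -0.05 to 0.50, unadjusted p = 0.0972, adjusted p = 0.937 by edgeR). The groups overlapped in both genes. SLC6A17, a carrier of neutral amino acids into synaptic vesicles, lies on chromosome 1 from 110150494 to 110202202 and was higher in every shPTBP1 library. It had 1.14, 1.45 and 1.34 FPKM in shPTBP1, against 1.00, 1.05 and 1.12 FPKM in shControl, and a log2 fold change of 0.34 (95% interval -0.04 to 0.72, unadjusted p = 0.0742, adjusted p = 0.907 by edgeR). SLC6A9, a glycine carrier, ranged from 3.12 to 5.47 FPKM and SLC6A15, a carrier of branched-chain amino acids and proline, from 1.47 to 2.32 FPKM over both groups. The monoamine carriers SLC6A2, SLC6A3 and SLC6A4 were at no more than 0.01 FPKM.

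Of the SLC43 genes, SLC43A3, on chromosome 11 from 57406954 to 57427580, stands among the transporters by its family name but is known as a carrier of purine nucleobases. By the annotation it overlaps the protein-coding gene AP000781.2 on the same strand, so their reads may be shared. SLC43A3 had 52.7, 87.4 and 101 FPKM in shPTBP1, against 61.5, 68.4 and 53.2 FPKM in shControl. The lowest of all 6 libraries, shPTBP1 1, was in the group with the higher mean, and the log2 fold change of 0.43 (95% interval -0.14 to 1.00, adjusted p = 0.953 by edgeR) ranged from 0.22 to 0.66 as each library was left out. SLC43A1, a facilitative carrier of branched-chain amino acids, had 1.37, 1.48 and 1.49 FPKM in shPTBP1, against 1.00, 0.95 and 2.09 FPKM in shControl. The proton-coupled SLC36 carriers were low. SLC36A1, which exports small neutral amino acids from lysosomes, had 1.91, 2.24 and 1.58 FPKM in shPTBP1, against 2.57, 2.51 and 0.74 FPKM in shControl, and SLC36A4 had 2.81 to 3.38 FPKM in shPTBP1 and 3.05 to 3.67 FPKM in shControl. SLC36A2 and SLC36A3, beside SLC36A1 on chromosome 5, had counts of 0 in all libraries.

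The spread between libraries was widest in a few of the transporters. In the 26 genes with at least 1 FPKM the highest library was a median of 1.55 times the lowest in normalised CPM, beside 1.48 times over all genes at that level. The ratio was at least 2 in 5 of them, SLC7A2 (6.03), SLC7A6 (3.91), SLC36A1 (3.56), SLC7A11 (2.35) and SLC43A1 (2.16), and under 1.5 in 10. A library at least 1.5-fold above or below the other 5 was shControl 3 in 2 genes, SLC7A6 above and SLC36A1 below, or 7.69% of the 26 beside 2.75% of all genes at that level. For shPTBP1 2 it was SLC7A2 alone, below, and for the other 4 libraries there was no such transporter.

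Library numbers were compared because transcripts of blood cells separated them. In both groups, numbers 1 and 2 held red-cell transcripts that number 3 nearly lacked, with HBB, a globin gene, at 345, 306 and 0.36 FPKM in shPTBP1 1, 2 and 3, against 519, 329 and 0.36 FPKM in shControl 1, 2 and 3. Of the 7 red-cell markers 3 had a mean of at least 1 FPKM and HBM was at 0, and their sum ranged from 0.88 to 656 FPKM in shPTBP1 and from 1.09 to 989 FPKM in shControl. The 5 leukocyte markers summed to 0.00 to 5.72 FPKM in shPTBP1 and 0.02 to 8.14 FPKM in shControl, with CD3E at no more than 0.09 FPKM. Their part in the transporter values was not tested.

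Within the libraries numbered 1 and 2, 34 transporters were tested and none was called by edgeR at an adjusted p under 0.05, beside 63 of all genes (0.319%). At an unadjusted p under 0.05 there were 6 (17.6%, beside 17.7% of all genes), namely SLC1A1, SLC38A3, SLC43A1, SLC6A15 and SLC6A16, higher in shPTBP1, beside 10.3% of all genes in that direction, and SLC7A11, lower, beside 7.46%. SLC7A11 came closest to the threshold, with a log2 fold change of -0.99 and an adjusted p of 0.0815 in edgeR. In number 3, where there is 1 library a group and so no test, its log2 difference was 0.82. The sign also differed in SLC1A5, with -0.53 in numbers 1 and 2 and 0.42 in number 3, in SLC38A1 (-0.17 and 0.39) and in SLC7A1 (-0.29 and 0.13). It did not in the paralogs SLC38A2 (0.11 and 0.22) and SLC7A2 (0.06 and 1.15). SLC7A8 kept its sign, with -0.26 in numbers 1 and 2 and -0.37 in number 3, and so did SLC7A6 (-0.23 and -1.63) and SLC43A3 (0.12 and 1.00). Opposite signs were found in 14 of the 26 transporters, or 53.8%, beside 59.9% of all genes with at least 1 FPKM.

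**Figure D4:**
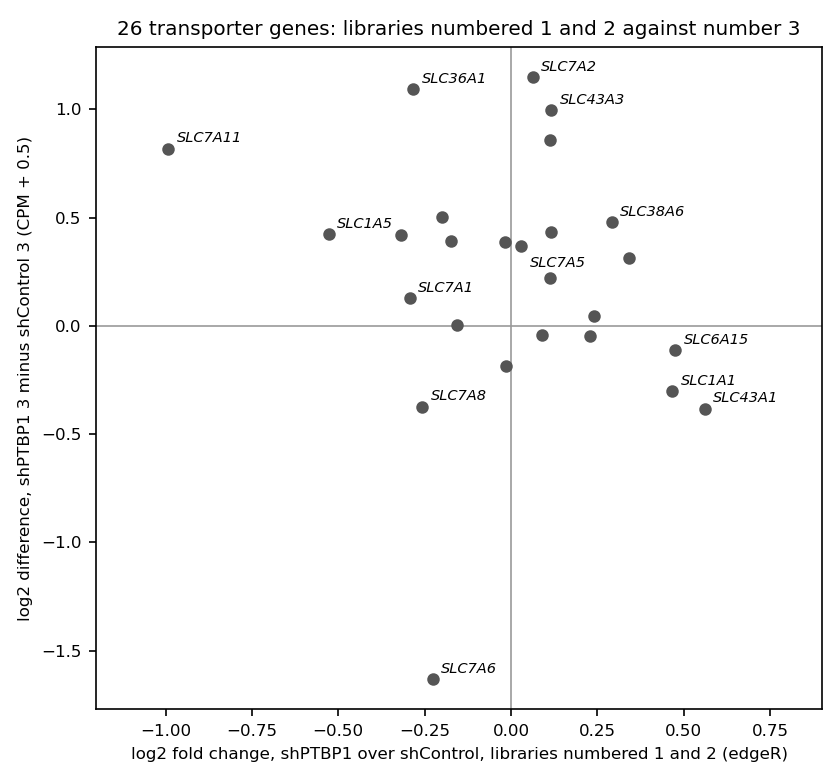
Log2 fold change of shPTBP1 over shControl in the libraries numbered 1 and 2 (horizontal, edgeR) against the log2 difference between shPTBP1 3 and shControl 3 (vertical, CPM plus 0.5) for the 26 transporter genes with a mean of at least 1 FPKM, 1 point a gene. SLC7A11 lies at -0.99 and 0.82, SLC7A6 at -0.23 and -1.63, and 14 of the 26 points lie in the quadrants of opposite sign.

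Without shControl 3 alone, the count of genes called by edgeR was 136 (0.674%) in place of 6, and again no transporter was among them. The transporters at an unadjusted p under 0.05 then numbered 7 of 34 (20.6%, beside 16.6% of all genes). SLC1A1, SLC38A3, SLC43A1, SLC6A15 and SLC6A16 were higher, beside 10.2% of all genes, and SLC1A5 and SLC7A11 lower, beside 6.43%, with a smallest adjusted p of 0.140. SLC7A8 was not among the 7, and its log2 fold change was -0.23.

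Other genes of amino acid handling were read from the same fit. Of 19 other carriers of amino acids and small peptides in the table, most of them of mitochondria, lysosomes and synaptic vesicles, 13 were tested, 0 passed the edgeR threshold and 0 had an unadjusted p under 0.05, with a median log2 fold change of -0.00. The mitochondrial carrier SLC25A29, with the smallest p of the list, had 2.94, 3.39 and 2.89 FPKM in shPTBP1, against 1.66, 1.96 and 3.44 FPKM in shControl. The mitochondrial glycine carrier SLC25A38 had 11.6, 13.3 and 14.0 FPKM in shPTBP1, against 18.3, 13.8 and 12.8 FPKM in shControl.

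Of 35 enzymes of amino acid synthesis and breakdown, 28 were tested and 0 passed the edgeR threshold, and 3 had an unadjusted p under 0.05, 1 higher and 2 lower in shPTBP1 (beside 3.58% and 2.11% of all genes), with a median of -0.06. SHMT2, the mitochondrial enzyme that turns serine into glycine, had 34.3, 41.4 and 37.6 FPKM in shPTBP1, against 29.7, 27.4 and 20.6 FPKM in shControl, and its groups did not overlap. PSPH and PSAT1, of the serine synthesis pathway, were the 2 lower ones. PSPH had 10.7, 10.3 and 11.5 FPKM in shPTBP1, against 18.5, 16.3 and 12.8 FPKM in shControl. PSAT1 had 45.9, 44.7 and 48.9 FPKM in shPTBP1, against 76.3, 71.6 and 47.2 FPKM in shControl, and its groups overlapped through shControl 3. The log2 fold changes were 0.57 for SHMT2, -0.53 for PSPH and -0.46 for PSAT1, and the adjusted p-values in edgeR were 0.642, 0.706 and 0.876. Of the enzymes known from hepatocytes, TAT, ARG1, OTC and TDO2 were at no more than 0.03 FPKM, whereas HPD, of tyrosine breakdown, was at 161 to 180.0 FPKM in shPTBP1 and 103 to 199 FPKM in shControl.

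The 14 genes of the ATF4 axis, NRF2 and MYC were all tested, and 0 passed the edgeR threshold and 0 had an unadjusted p under 0.05, with a median log2 fold change of -0.09. EIF2S1, the initiation factor subunit phosphorylated in the amino acid response, came closest, with 34.6, 36.7 and 34.4 FPKM in shPTBP1, against 30.5, 32.3 and 30.7 FPKM in shControl, groups that did not overlap, and an adjusted p of 0.890 in edgeR. ATF4, the transcription factor of that response, had 88.2, 111 and 108 FPKM in shPTBP1, against 134, 126 and 94.8 FPKM in shControl. Here too shControl 3 was the lowest of its group, and the log2 fold change was -0.18 (95% interval -0.57 to 0.21). MYC and NFE2L2, the gene of NRF2, split into high and low libraries without regard to the label. MYC had 1.71, 1.73 and 45.8 FPKM in shPTBP1, against 1.41, 35.2 and 44.1 FPKM in shControl. NFE2L2 had 35.0, 7.55 and 33.6 FPKM in shPTBP1, against 41.8, 30.7 and 7.29 FPKM in shControl. None of the 26 transporters with at least 1 FPKM had a comparable gap, since none showed a step of 4-fold or more between neighbouring libraries in order of level.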

How the data were processed

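RNA of 3 shPTBP1 and 3 shControl libraries of MHCC97H cells was measured by poly(A) RNA-seq. The authors deposited 1 table with FPKM and whole-number counts per gene and library, and the submitters' processing notes name cutadapt 1.9, FastQC, HISAT2 2.2.1, StringTie and the build hg38, with no settings given in the sources used here. The deposited counts were treated as estimated counts, because 32.5 to 34.4% of those from 1 to 40 were multiples of 4 in each library, so limits given for a count of 0 cover counting error only and assume that 1 count is 1 fragment, while 95% intervals rest on the spread between libraries. FPKM, as the authors deposited them, were used for levels, being per length, and the authors' own columns were otherwise not used. The library totals were 68.7 to 85.3 times 1e6 counts and TMM factors 0.977 to 1.02.

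Rounded counts entered the quasi-likelihood F test of edgeR 4.0.16, run in R 4.3.3, after its filter on low counts and TMM scaling and with no covariate, and p-values were adjusted over all genes tested by the Benjamini-Hochberg method. CPM are TMM-normalised. The standard error is the absolute log2 fold change over the square root of F, and the 95% interval uses the t quantile of the edgeR degrees of freedom. The steps were tested on simulated data. Differences between the libraries numbered 3 are on log2(CPM + 0.5).

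The transporter list, the other lists and the tests were chosen with earlier results of these data known. Transporters given with their tests were those at an unadjusted p under 0.05, those whose groups do not overlap at a mean of at least 1 FPKM, the 12 with the highest mean FPKM, and SLC3A2, SLC7A5, SLC7A11, SLC7A1, SLC1A5 and SLC38A2. SLC1A4, the paralog of SLC1A5, is also given with its fold change and interval but is not counted among these. The others are given by ranges or as examples of their family, of each other list up to 4 genes were named among the 4 with the smallest p-values, and MYC, NFE2L2, the globin and hepatocyte enzyme genes, CTH, SLC38A3, SLC38A10, SLC6A9 and SLC6A15 were named after their values were seen. Some genes of the lists are not reported here by name. Alternatives were DESeq2 1.42.0, RLE scaling, no filter, limma 3.58.1 on log2(FPKM + 1) or log2(FPKM + 0.1), a replicate block, number 3 as a covariate, numbers 1 and 2 only, counts divided by 4, an unadjusted threshold and leaving out each library. All 58 genes were matched to GENCODE release 29 for overlaps, and coordinates are those of the deposited table. Promoter windows came from RefSeq (GRCh38.p14), where 43 of the 58 genes matched. Tables and figures were made in Python 3.11.15 (pandas 2.3.3, numpy 2.4.6, matplotlib 3.10.9).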

Additional observations from a re-analysis of the deposited data

How the results depend on the processing

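No transporter passed the adjusted threshold under any alternative fit run, in edgeR, DESeq2 or limma, while an unadjusted threshold gave 1. The count of all genes called, 6, became 168 in DESeq2, 1 in limma on log2(FPKM + 1) without a filter, 3 with number 3 as a covariate, 63 in numbers 1 and 2 only and 2 to 136 as each library was left out, the highest being without shControl 3. It was 3 without shControl 1 and 2 without each of shPTBP1 1, shPTBP1 2 and shControl 2. Transporters at an unadjusted p under 0.05, an outcome whose recount under every alternative was added after seeing the data, as was the recount of those with at least 1 FPKM, were 1 in all libraries (SLC7A8, but SLC7A6 in DESeq2), 0 with no filter on low counts, 6 in numbers 1 and 2 only and 0 to 7 as each library was left out. Of all genes, 5.69% were at that level in all libraries in edgeR and 17.7% in numbers 1 and 2 only. Without shControl 3, where the 7 transporters were found, the share was 16.6%. In the other settings the share over all genes was not counted, so those transporter counts have nothing beside them. The number with a mean of at least 1 FPKM was 26 whichever library was left out.

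Over genes as a whole, deviations from the group means correlated at -0.07, 0.11 and 0.03 between libraries of the same number 1, 2 and 3. Between libraries of different numbers they correlated at -0.13 to 0.09. The red-cell transcripts did follow the number in both groups, so these correlations cannot tell whether the numbers mark a shared batch. With the number as a replicate block, 0 genes and 0 transporters were called, 0 transporters had an unadjusted p under 0.05, and SLC38A1 had a log2 fold change of 0.012. With number 3 as a covariate SLC38A1 had 0.014, against -0.01 without. Leaving out each library gave log2 fold changes of -0.17 to 0.11 for SLC38A1, -0.21 to 0.10 for SLC38A5, -0.053 to 0.10 for SLC3A2 and -0.019 to 0.32 for SLC6A6, which all included a change of sign. The other 11 of the 15 transporters given with their tests kept their sign under the 16 alternatives, and the smallest adjusted p of any was 0.0815, for SLC7A11 in numbers 1 and 2 only.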

Other observations

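Between the 2 number 3 libraries, which have no replicate, SLC36A1 differed by 1.09 and SLC7A2 by 1.15 on the log2 scale, shPTBP1 over shControl, and SLC38A3 by -1.03. In numbers 1 and 2 the log2 fold changes in edgeR were -0.28 for SLC36A1, 0.06 for SLC7A2 and 1.89 for SLC38A3, a gene under 1 FPKM on average. HPD had 172, 161 and 180.0 FPKM in shPTBP1, against 110.0, 103 and 199 FPKM in shControl. CTH, which releases cysteine from cystathionine, had 19.3, 16.2 and 16.0 FPKM in shPTBP1, against 10.9, 12.7 and 26.6 FPKM in shControl. In both enzymes, as in SLC43A1 and SLC1A1, shControl 3 was the highest of the 6 libraries and shControl 1 and 2 were the lowest.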
